A study of Mus musculus with 12 samples.

Results

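The 43 genes described here encode the contractile filaments of skeletal muscle, its energy enzymes and the proteins that move its calcium. Each was found by its name in the tables for subcutaneous Myc-CaP tumors, which list 34508 genes. They were chosen from the tumor libraries because their levels were uneven among the 3 vehicle libraries, so their levels in tumors are given as a description, and no p-value is given for any of them there. The cell libraries were not used to choose them, and the genes are tested there. In tumors, 42 of the 43 were highest in vehicle library 1, next highest in vehicle library 3 and lowest in vehicle library 2, and the exception was Eno3. Of all 15558 genes tested in tumors, 30.8% had that order. As a share of all counts, the 43 genes took 0.388%, 0.0498% and 0.254% in vehicle libraries 1, 2 and 3 and 0.0260%, 0.0324% and 0.0298% in the YJ1206 libraries. The groups did not overlap in this share, and vehicle library 2 lay nearer to the YJ1206 libraries than to the other vehicle libraries.

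RNA was sequenced from 12 libraries in 4 groups of 3. Myc-CaP cells, a mouse prostate cancer line that carries a MYC transgene, were grown in culture with DMSO or with 1 μM YJ1206 for 24 hours. The tumors were Myc-CaP cells injected under the skin of male FVB mice, whose age is not given in the sources used here, and the mice received vehicle or 100 mg/kg YJ1206 by mouth 3 times per week. YJ1206 is a PROTAC, a molecule that directs CDK12 and CDK13, kinases of transcription elongation, to degradation. A graft of this kind is 1 cell line in its host, and tissue taken from it also holds stroma, vessels and blood of that host. In such bulk tissue, fewer cells of a type and less RNA per cell cannot be told apart.

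Skeletal muscle fibers contract as myosin heads in the thick filament pull on actin in the thin filament. Troponin and tropomyosin switch the thin filament with calcium, titin and nebulin set the filament lengths, and Z-disc proteins anchor the ends of each sarcomere. Calcium is released from the sarcoplasmic reticulum through the ryanodine receptor and pumped back by an ATPase, and creatine kinase and glycogen breakdown supply the ATP. Fast and slow fibers use separate genes for most of these proteins. The 43 genes were therefore grouped as 10 of fast fibers, 6 of slow fibers, 13 of filaments and Z-discs that fiber types share, 6 of metabolism and 8 of calcium handling.

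Depth ranged from 15391544 to 26928365 counts on genes in vehicle tumors and from 18307820 to 22418665 in YJ1206 tumors, so 3 counts equal 0.111 to 0.195 counts per 1000000 counts of the library (CPM). All 43 genes were above 3 counts in vehicle libraries 1 and 3, 38 in vehicle library 2, and 32 or 33 in each YJ1206 library. The 95% exact binomial interval of the summed share was 0.386% to 0.391% in vehicle library 1 and 0.0489% to 0.0506% in vehicle library 2, which covers counting error alone. Vehicle library 3 lay between the other vehicle libraries for all 43 genes, at a median position of 0.608 (middle range 0.554 to 0.650) on a scale from 0 at vehicle library 2 to 1 at vehicle library 1. The 288 other tested genes that differed at least 4-fold between vehicle libraries 1 and 2 gave 95.1% between and a median position of 0.590. YJ1206 library 3 lay between YJ1206 libraries 1 and 2 for 18 of the 43, and for 72.4% of the 98 other tested genes that differed at least 4-fold between those libraries. Whether vehicle library 3 is a tumor separate from those of vehicle libraries 1 and 2 was not tested, and the SDs and calls in tumors count it as separate, as the study states. Values without each library are therefore given beside the results that rest on it.

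The bases before the start of 4 of these genes are shown as the sequence context of genes that behaved differently here. Eno3, Acta1 and Mylpf are the 3 highest in tumors that have an entry in the RefSeq promoter table, and Myh4, which went from 6034 counts in vehicle library 1 to 7 in vehicle library 2, was added after its values were seen. Each run is the 250 bases before the start, on the strand of the gene, from RefSeq on build GRCm38.p6. Capitals mark an E-box (CANNTG), a CArG box, a MEF2 box or TATAAA, each searched on both strands.
Eno3 (chr11:70656926-70657175, plus strand): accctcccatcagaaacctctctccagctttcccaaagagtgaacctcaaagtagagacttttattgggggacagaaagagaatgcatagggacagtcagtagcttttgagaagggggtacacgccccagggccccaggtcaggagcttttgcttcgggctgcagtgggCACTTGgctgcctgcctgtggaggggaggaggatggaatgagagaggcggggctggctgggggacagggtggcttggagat
Acta1 (chr8:123894776-123895025, minus strand): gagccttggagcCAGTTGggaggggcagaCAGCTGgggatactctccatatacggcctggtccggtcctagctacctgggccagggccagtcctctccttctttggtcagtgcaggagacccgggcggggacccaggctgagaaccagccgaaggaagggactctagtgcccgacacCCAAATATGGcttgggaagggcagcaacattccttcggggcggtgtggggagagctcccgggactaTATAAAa
Mylpf (chr7:127211358-127211607, plus strand): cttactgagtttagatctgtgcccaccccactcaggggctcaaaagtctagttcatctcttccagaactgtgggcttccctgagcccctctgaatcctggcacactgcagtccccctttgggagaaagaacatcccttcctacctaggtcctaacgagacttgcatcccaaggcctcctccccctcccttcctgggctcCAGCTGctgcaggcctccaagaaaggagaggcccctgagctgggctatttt
Myh4 (chr11:67237562-67237811, plus strand): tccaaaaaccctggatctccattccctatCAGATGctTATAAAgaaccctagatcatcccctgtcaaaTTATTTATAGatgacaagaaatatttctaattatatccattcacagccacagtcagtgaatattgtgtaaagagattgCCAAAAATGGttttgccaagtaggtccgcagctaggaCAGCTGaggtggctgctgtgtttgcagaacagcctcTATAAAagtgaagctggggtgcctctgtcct
The E-box is the letter pattern that MyoD family factors bind, the CArG box that of serum response factor, and the MEF2 box that of MEF2. Of the 43 genes, 34 had an entry. At least 1 entry held an E-box for 29 of them (85.3%), a MEF2 box for 7 (20.6%), a CArG box for 3 (8.82%) and TATAAA for 6 (17.6%). Of all 32851 entries in the table, 66.2% held an E-box, 2.92% a MEF2 box, 1.47% a CArG box and 12.4% TATAAA. The first shares count genes, some of which, such as Mb, have several entries, whereas these count single entries, so the 2 are not on the same basis. The Acta1 run held 2 E-boxes, a CArG box and TATAAA. The Myh4 run held 2 E-boxes, a CArG box and a MEF2 box, and one of its 3 matches to TATAAA overlaps the MEF2 box. The Eno3 and Mylpf runs each held 1 E-box and none of the others. These are matches of letters only.

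Among the fast fiber genes, the troponins and light chains had the highest levels, and all 10 followed the order of vehicle libraries 1, 3 and 2. Levels here are in transcripts per 1000000 (TPM), which are scaled for gene length, and are given for vehicle libraries 1, 2 and 3 and then for YJ1206 libraries 1, 2 and 3. Tnni2, the inhibitory troponin of fast fibers, was at 144, 69.5 and 114 TPM, then 47.9, 58.4 and 60.6 TPM. Tnnt3, which ties fast troponin to tropomyosin, was at 119.8, 6.35 and 85.9 TPM, then 1.79, 6.67 and 3.77 TPM. Vehicle library 2 was thus above every YJ1206 library for Tnni2 and under the highest of them for Tnnt3. Mylpf, the regulatory light chain, was at 111, 11.2 and 64.1 TPM, then 3.92, 2.92 and 4.93 TPM. Myl1, the essential light chain, was at 116, 2.57 and 63.8 TPM, then 0.230, 0.922 and 0.215 TPM. For both light chains every vehicle library was above every YJ1206 library. The other 6 were Tnnc2, Mybpc2, Actn3, Myh1, Myh2 and Myh4, and they ran from 10.1 to 82.0 TPM in vehicle library 1 and from 0.0146 to 4.78 TPM in the YJ1206 libraries. The ratio of vehicle library 1 to 2 in CPM was 39.6 for Tnnc2, the calcium sensor of fast fibers, 26.1 for Mybpc2, a myosin-binding protein, and 5.60 for Actn3, the alpha-actinin of fast Z-discs.

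Myosin heavy chains set the speed of a fiber, and the division of counts among their genes differed between the libraries, as did the summed count. That division rests on 54 to 63 counts in each YJ1206 library, and the genes share sequence, as described below. Myh4, the chain of the fastest fibers, had 6034, 7 and 2522 counts in vehicle libraries 1, 2 and 3, beside 2, 2 and 1 counts with YJ1206. Myh7, the slow chain that heart muscle also uses, had 626, 0 and 265 counts and then 0 in every YJ1206 library. With vehicle library 2 set at 3 counts, Myh7 was at least 254-fold higher in vehicle library 1. Myh1, the chain of intermediate fast fibers, had 1733, 210 and 773 counts, then 54, 43 and 47. Myh2, the slowest of the fast chains, had 828, 49 and 380 counts, then 7, 12 and 6. Myh1, Myh2 and Myh4 were thus above every YJ1206 library in each vehicle library, by few counts for Myh4 in vehicle library 2, whereas Myh7 was above 0 in vehicle libraries 1 and 3 alone. Of the counts on these 4 genes, Myh4 took 65.4% in vehicle library 1 and 64.0% in vehicle library 3, against 2.63% (7 of 266 counts) in vehicle library 2 and 1.85% to 3.51% in the YJ1206 libraries. Myh1 took 18.8% and 19.6% in vehicle libraries 1 and 3, 78.9% in vehicle library 2 and 75.4% to 87.0% in the YJ1206 libraries. The fast chains lie side by side on the plus strand of chromosome 11 in build GRCm38 (GENCODE vM21), Myh2 at chr11:67171027-67197517, Myh1 at chr11:67200052-67224575 and Myh4 at chr11:67238029-67260446. Myh7 lies on the minus strand at chr14:54970684-54994626.

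**Figure D1:**
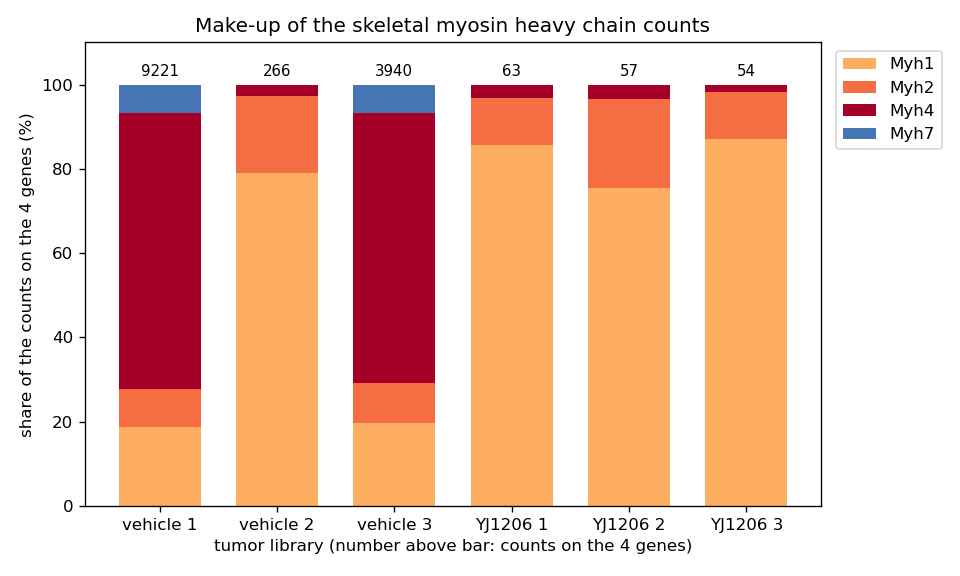
Share (%) of the counts on the 4 skeletal myosin heavy chain genes taken by each gene in the 6 tumor libraries, with their summed count above each bar. Myh4 takes 64.0% to 65.4% in vehicle libraries 1 and 3 (9221 and 3940 counts on the 4 genes), and Myh1 takes most of the 266 counts of vehicle library 2 and of the 54 to 63 counts of the YJ1206 libraries.

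The 4 myosin genes share sequence, and their counts were divided between them by the authors' quantification. Of the 31-base words in its transcripts, Myh1 shared 42.9% with another gene, Myh2 34.5%, Myh4 30.4% and Myh7 27.9%. Myh4 shared 19.4% of its words with Myh1 and 0.702% with Myh7. The transcripts that the Myh1 counts were assigned to also differed. Counts per TPM, a measure of the length of the assigned transcripts relative to the library, were 1.86, 0.994 and 1.91 for Myh1 in vehicle libraries 1, 2 and 3 and 0.379, 0.430 and 0.366 in the YJ1206 libraries. Myh1 has 4 annotated transcripts of 631 to 6081 bases. For Myh2, the same measure was 2.35 to 2.38 in all 6 libraries. The TPM of Myh1 in the YJ1206 libraries, 2.69 to 4.78, therefore rests on shorter transcripts than the 27.0 TPM of vehicle library 1, and its ratio of vehicle to YJ1206 in CPM was 18.7.

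As a sum, the slow fiber genes were lower than the fast fiber genes in each tumor library. Mybpc1, the slow myosin-binding protein, was at 27.5, 14.3 and 22.8 TPM in vehicle libraries 1, 2 and 3 and at 5.28, 11.2 and 10.9 TPM in YJ1206 libraries 1, 2 and 3. Tnnc1, the calcium sensor of slow and heart muscle, was at 12.5, 2.60 and 11.1 TPM, then 2.27, 2.08 and 1.52 TPM. Each vehicle library was above each YJ1206 library for both genes, and vehicle library 2 was the nearest. Tnnt1, the slow troponin T, was at 17.9, 0.462 and 9.69 TPM, then 0.154, 0.146 and 0 TPM. Myl2, the regulatory light chain of slow and heart muscle, was at 13.3, 0.764 and 7.27 TPM, then 1.34, 0.878 and 1.59 TPM. Tnni1, the slow troponin I, ran from 1.71 to 9.79 TPM in vehicle and from 0.843 to 1.27 TPM in YJ1206 libraries. Myl2 was lower in vehicle library 2 than in each YJ1206 library, and the groups overlapped for it. In TPM, the fast genes summed to 7.76, 5.06 and 7.22 times the slow genes in vehicle libraries 1, 2 and 3 and to 6.02, 4.79 and 5.13 times in the YJ1206 libraries, so the groups overlapped. Without Tnni2 and Mybpc1, which had the narrowest range of their roles, this ratio was 8.84, 5.61 and 8.41 with vehicle and 2.81, 3.76 and 4.02 with YJ1206.

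Of the filament and Z-disc genes that fiber types share, skeletal actin was the most abundant in vehicle libraries 1 and 3. Acta1, which encodes it, was at 315, 6.42 and 185 TPM in vehicle libraries 1, 2 and 3 and at 2.64, 0.961 and 1.72 TPM in the YJ1206 libraries. Tpm2, a tropomyosin also found in smooth muscle, was at 65.3, 13.5 and 44.5 TPM, then 8.72, 18.4 and 15.0 TPM. Vehicle library 2 was above the YJ1206 libraries for Acta1 and within their range for Tpm2. Ttn, which encodes titin, was at 72.7, 3.37 and 51.6 TPM, then 0.728, 0.481 and 0.283 TPM. Des, the intermediate filament desmin, was at 37.6, 4.19 and 25.7 TPM, then 0.995, 1.29 and 1.06 TPM. All vehicle libraries were above all YJ1206 libraries for both. Because its transcript is so long, Ttn alone took 46.3% and 43.9% of the counts on the 43 genes in vehicle libraries 1 and 3, 19.1% in vehicle library 2 and 3.79% to 5.35% in the YJ1206 libraries. The ratio of mean vehicle to mean YJ1206 in CPM was 100.2 for Acta1, 75.4 for Ttn, 74.0 for Xirp2, an actin-binding protein of cell junctions, and 27.6 for Neb, which encodes nebulin. It was 8.90 for Tcap, the titin cap, 6.51 for Xirp1, 3.82 for Ldb3, a Z-disc adaptor, and 1.495 for Actn2, the common alpha-actinin, whose groups overlapped. Myoz1, Myot and Smpx, all of the Z-disc or its linkage to the membrane, were at 5.18 to 6.41 TPM in vehicle library 1 and at or under 3 counts in every YJ1206 library.

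Among the metabolic genes, Eno3 behaved apart from the rest. Eno3, the muscle form of the glycolytic enzyme enolase, was at 283, 319 and 298 TPM in vehicle libraries 1, 2 and 3 and at 204, 257 and 235 TPM in the YJ1206 libraries. It was the one gene of the 43 with its highest vehicle level in library 2, and its groups did not overlap. Ckm, muscle creatine kinase, was at 73.7, 2.55 and 40.7 TPM, then 2.67, 1.94 and 2.95 TPM. Mb, which encodes the oxygen store myoglobin, was at 20.4, 1.25 and 13.7 TPM, then 0.983, 1.15 and 1.42 TPM. Pygm, which breaks down glycogen, was at 14.3, 1.55 and 9.44 TPM, then 1.55, 1.58 and 1.93 TPM. For Ckm, Mb and Pygm, vehicle library 2 fell among the YJ1206 libraries or under them, and vehicle libraries 1 and 3 were far above. Pgam2, a glycolytic mutase of muscle, had 0 counts in vehicle library 2 and at most 1 in each YJ1206 library, beside 14.8 and 10.1 TPM in vehicle libraries 1 and 3. Ckmt2, the mitochondrial creatine kinase, was the lowest of the 43, with 36, 0 and 18 counts after vehicle and 0, 0 and 1 after YJ1206.

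As a sum, the calcium handling genes were low outside vehicle libraries 1 and 3. Their summed level was 124, 3.83 and 72.7 TPM in vehicle libraries 1, 2 and 3 and 4.13, 5.12 and 3.84 TPM in the YJ1206 libraries. Atp2a1, the calcium pump of fast fibers, was at 58.8, 0.951 and 34.8 TPM, then 1.06, 0.564 and 0.447 TPM. Pvalb, the calcium buffer parvalbumin, was at 33.3, 0.155 and 19.9 TPM, then 0.111, 0 and 0 TPM. In counts, Pvalb had 2 in vehicle library 2 and at most 1 in each YJ1206 library. Trdn, which encodes the reticulum anchor triadin, was at 9.25, 0.420 and 4.97 TPM, then 0.0839, 0 and 0.303 TPM. Casq1, the calcium-binding calsequestrin of fast fibers, was at 7.65, 0.596 and 4.25 TPM, then 0.454, 0.725 and 0.376 TPM. Ryr1, the release channel, and Cacna1s, the voltage sensor that opens it, were lower in every YJ1206 library than in every vehicle library, with ratios of mean vehicle to mean YJ1206 of 53.5 and 29.5 in CPM. Casq2, the calsequestrin of slow and heart muscle, was lower in vehicle library 2, with 22 counts, than in the YJ1206 libraries, with 39, 92 and 61, and had 114 and 43 counts in vehicle libraries 1 and 3. Jph2, which joins reticulum to membrane, had 90, 29 and 49 counts with vehicle and 32, 68 and 32 with YJ1206.

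**Figure D2:**
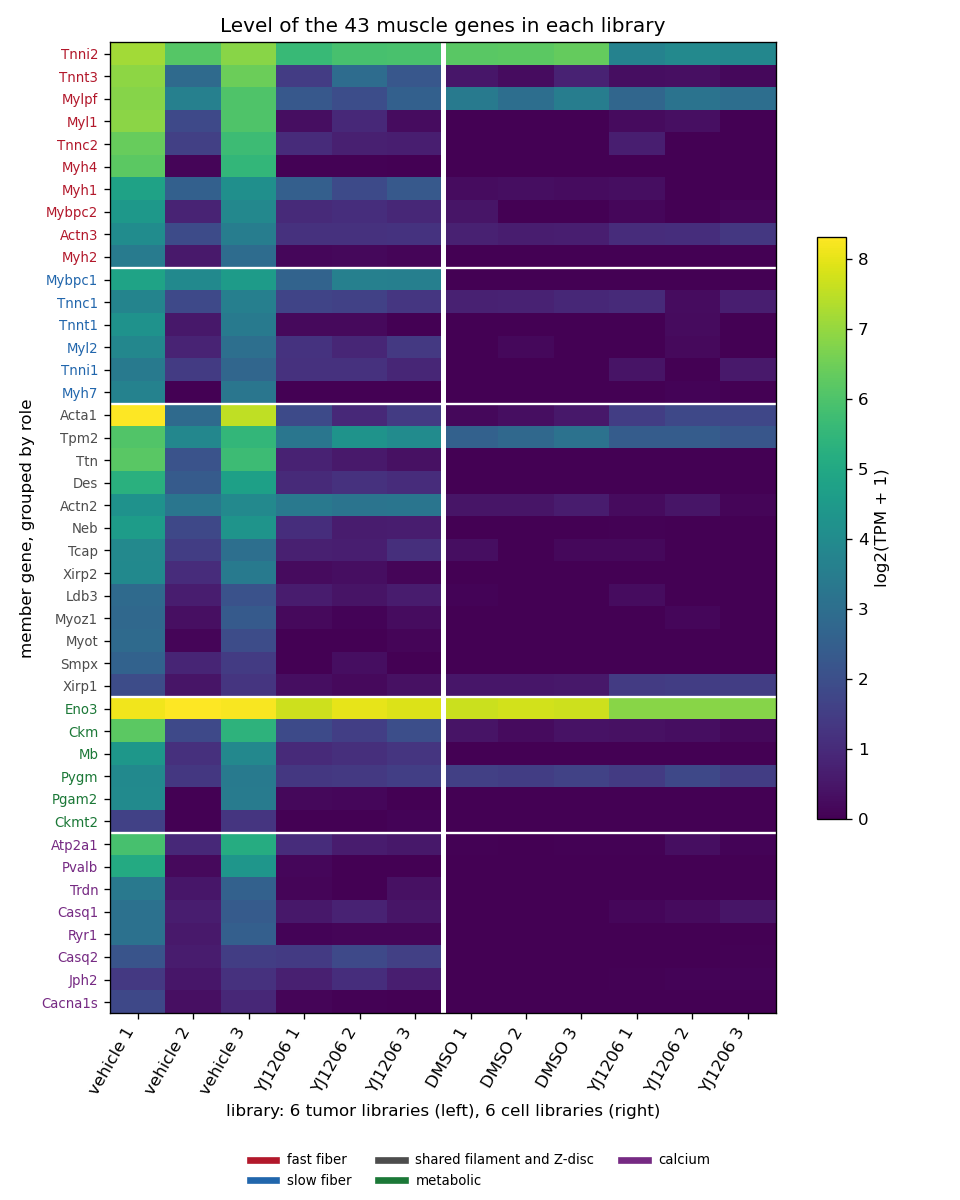
Level of each of the 43 genes, as log2(TPM + 1), in the 6 tumor and 6 cell libraries, with genes grouped and colored by role and ordered by mean tumor level within it. Vehicle libraries 1 and 3 are high across all roles, and Eno3 and Tnni2 are high in every tumor library and in the cells.

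Summed by role, the TPM of vehicle libraries 1, 2 and 3 and of YJ1206 libraries 1, 2 and 3 showed how far the groups stood apart. The fast fiber genes summed to 721, 100.6 and 471, then 62.1, 74.8 and 76.4 TPM. The slow fiber genes summed to 92.9, 19.9 and 65.2, then 10.3, 15.6 and 14.9 TPM, and the shared filament genes to 587, 43.6 and 370.0, then 25.2, 31.5 and 29.5 TPM. No vehicle library overlapped with a YJ1206 library in these 3 sums or in that of the metabolic genes, of which Eno3 makes up most. In the sum of the calcium genes, vehicle library 2 lay just under the lowest YJ1206 library. The ratio of vehicle library 1 to 2 in summed CPM was 24.0 for calcium, 15.1 for shared filaments, 14.1 for fast fibers, 3.77 for slow fibers and 1.29 for metabolism, while the median of the single genes' ratios was 13.7, 8.71, 19.5, 8.73 and 15.6 in that order of roles. Without Eno3 and Tnni2, all 43 less those genes summed to 1507, 104 and 940.1 TPM in the vehicle libraries and to 59.2, 73.4 and 70.5 TPM in the YJ1206 libraries.

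**Figure D3:**
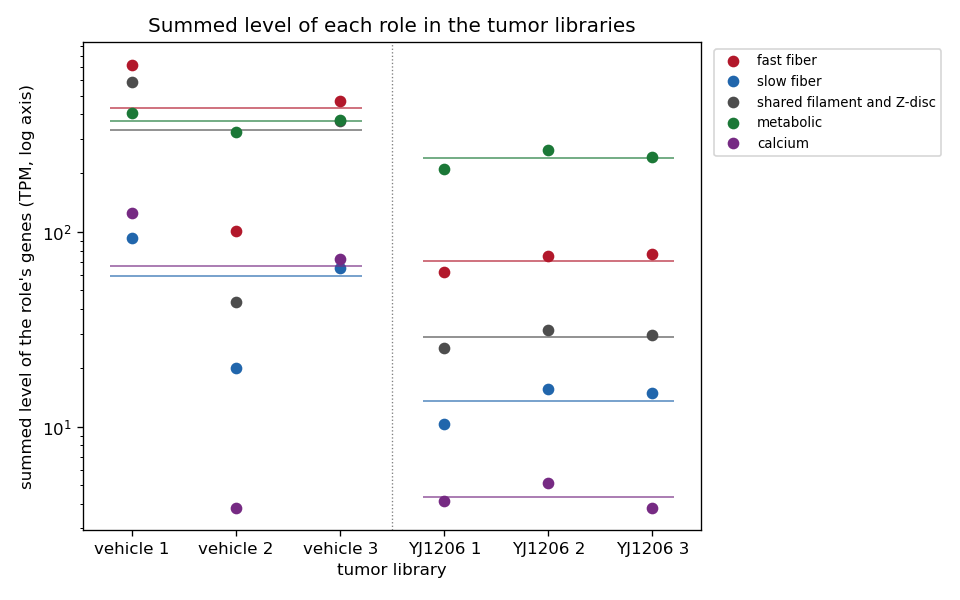
Summed level (TPM, log axis) of the genes of each role in each tumor library, with a line at the mean of each group of 3. Vehicle library 2 is the lowest vehicle library in each role, and for the calcium genes it lies at 3.83 TPM against 3.84 to 5.12 TPM in the YJ1206 libraries.

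In the comparison of YJ1206 with vehicle tumors, 28 of the 43 genes had every vehicle library above every YJ1206 library in CPM, and none had the reverse. Of the 33 genes with enough counts for a test, 21 did not overlap in this way, beside 22.5% of all 15558 genes tested. In edgeR's quasi-likelihood test over all genes, 27 of the 33 were lower with YJ1206 at an adjusted p-value under 0.05, beside 14.9% of all tested genes, and DESeq2 called 30. The genes were chosen on these same libraries, and some, such as Myl1 and Cacna1s, passed the filter through the vehicle libraries alone, so nothing is read from these counts. The 6 that were not called were Myl2, Actn2, Tpm2, Eno3, Casq2 and Jph2. Myh4, Myh7, Tnnt1, Myoz1, Myot, Smpx, Ckmt2, Pgam2, Pvalb and Trdn had too few counts outside vehicle libraries 1 and 3 to be tested.

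These counts depended on single libraries. Vehicle library 1 was above every YJ1206 library for all 43 genes, vehicle libraries 1 and 3 together for 42, and vehicle library 2 for 28. The share of all genes was not counted for these orders, so nothing is read from them. At least 4-fold higher levels in vehicle library 1 than in vehicle library 2 were found for 38 of the 43 genes, and for 28 of the 33 tested, beside 1.18% of all genes tested. They were chosen for uneven levels in these vehicle libraries, so nothing is read from this difference in share. The genes with a smaller ratio were Tnni2, Mybpc1, Actn2, Eno3 and Jph2. The number called lower was 15 of 33 tested when vehicle library 1 was left out, 12 of 33 for vehicle library 3 and 40 of 43 for vehicle library 2. Of all genes tested, 2022 of 15680, 1178 of 15867 and 3076 of 15810 were lower in those fits. Among the 43, it was 8, 7 and 5 of 43 tested when YJ1206 library 1, 2 or 3 was left out, since the filter then kept all 43. Of all genes tested, 1671 of 15984, 1586 of 15786 and 1111 of 15970 were lower there. With libraries 1 and 2 of each group alone, 0 of the 33 were called in edgeR, beside 1 of all 15684 genes tested. An unadjusted p-value under 0.05 was found for 21 of the 33, beside 3068 of all.

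**Figure D4:**
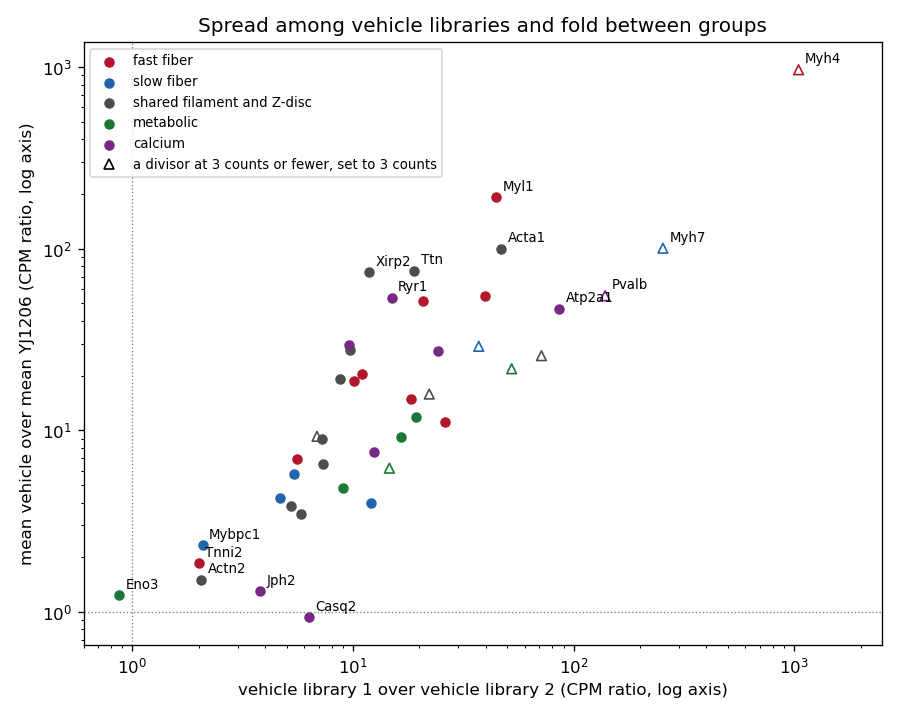
Each point is 1 of the 43 genes, with the CPM ratio of vehicle library 1 to vehicle library 2 across (log axis) and the CPM ratio of mean vehicle to mean YJ1206 upward (log axis). Open triangles have a divisor at 3 counts or fewer, which was set to 3 counts. Both ratios share vehicle libraries 1 and 2, so no relation is read from them, and Eno3 lies at 0.865 and 1.23 and Casq2 at 6.31 and 0.935.

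Markers of other cell types were measured in the same libraries, and the list of fibroblast genes moved with the muscle genes among the vehicle libraries. Its 10 genes summed to 777, 238 and 562 TPM in vehicle libraries 1, 2 and 3 and to 175, 388 and 312 TPM in the YJ1206 libraries, and all 10 had the vehicle order 1, 3, 2. Between treatments, 0 of these 10 were called in edgeR and 2 in DESeq2, and 5 had an unadjusted p-value under 0.05 in edgeR. The macrophage and leukocyte list summed to 418, 248 and 350 TPM, then 254, 314 and 293 TPM, with 8 of 10 genes in that order. The list of muscle precursor genes summed to 7.31, 2.16 and 5.77 TPM, then 0.623, 0.930 and 1.17 TPM, with Pax7, which marks satellite cells, at 0 in all vehicle libraries. Myog, the late regulator of muscle differentiation, had 49, 11 and 26 counts with vehicle and 0, 0 and 1 with YJ1206. Of 12 heart genes, Nppa and Nkx2-5 were at 0 in every tumor library. Myh6, the fast heart myosin, had 36, 0 and 23 counts with vehicle and at most 2 in each YJ1206 library. Sln, which curbs the calcium pump and is also on a list of other muscle genes, had 33, 1 and 22 counts, then at most 2. Ryr2 had 20, 39 and 28 counts with vehicle, then 27, 12 and 21, and Tnni3 had 0, 1 and 0, then 0, 3 and 10. Of the 12 heart genes, 3 had the vehicle order 1, 3, 2, beside 30.8% of all tested genes. Endothelial genes summed to 74.2 to 78.0 TPM in vehicle and 82.5 to 90.5 TPM in YJ1206 libraries. The part of any of these cell types in the levels of the 43 genes was not tested.

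Other genes of muscle fibers, outside the 43, were counted in the same comparison. Of 39 further sarcomere and cytoskeleton genes, 31 were tested and 20 were lower with YJ1206 in edgeR, beside 14.9% of all tested genes, with a median log2 fold change of -1.19 against 0.0091 for all. Some of the 20, such as Mybph and Myom2, passed the filter on low counts through the vehicle libraries alone, so nothing is read from their number. Of the 39, 19 were at least 4-fold higher in vehicle library 1 than in vehicle library 2, as most of the 43 genes were. Of all genes tested, 1.18% were, a share that leaves out the untested genes among the 39. Tpm3 and Tpm1, tropomyosins that many cell types use, were the most abundant of these. Tpm3 was lower with YJ1206 (log2 fold change -0.19, adjusted p = 0.0210, edgeR), and Tpm1 did not pass the test (-0.015, adjusted p = 0.921, edgeR). Of 20 further metabolic genes, 13 were tested and 1, Car3, was lower in edgeR, while the most abundant, Gpd1 and Pdk4, were not called. Of 21 further genes of calcium and excitation, 16 were tested, 3 (Srl, Trim72 and Scn4a) were lower in edgeR and 1, Asph, was higher, while the widely used calcium pump Atp2a2 was not called. Of 10 genes of the membrane complex around dystrophin, 7 were tested, of which 0 were called in edgeR and 1 in DESeq2, with 3 at an unadjusted p-value under 0.05 in edgeR, and Dtna and Sgcb were the most abundant. Outside the 43, the genes nearest to the summed 43 on centered log2(CPM + 1) over the 6 tumor libraries were picked from 14215 candidates. They included Ptx3, Chl1, Eef1a2, Nrap, Myom2, Sfrp1, Myo18b, C3 and Kcnj12. Their root mean square difference from the sum ran from 0.184 for Ptx3 to 0.330 for Kcnj12. The added 1 narrows ratios at low CPM, as for Ptx3 at 13.5 and 0.668 CPM in vehicle libraries 1 and 2. Eno3 held 6384 of the 13398 summed counts in vehicle library 2. The ranking is therefore not one of fold changes. Nrap and Myom2 belong to the sarcomere, whereas Ptx3 and C3 are secreted proteins of innate immunity.

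In cultured Myc-CaP cells the 43 genes took 0.0184% to 0.0193% of the counts with DMSO and 0.0113% to 0.0116% with YJ1206, and most of this was Eno3 and Tnni2. The remaining 41 genes summed to 18.1 to 25.03 TPM with DMSO and 20.3 to 22.6 TPM with YJ1206. At most 3 counts in every cell library were found for 28 of the 43, and 13 of these had 0 throughout. Myh2, Myh4, Mybpc1, Des, Mb and Pvalb were among those at 0. Eno3 was at 202 to 213 TPM and Tnni2 at 71.7 to 80.7 TPM with DMSO. The tables of cells and tumors were quantified over separate gene sets and scaled separately, and the labels give polyA RNA for the cells and total RNA for the tumors although the protocol for both names removal of ribosomal RNA, so levels are set side by side without a test.

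With YJ1206, the genes tested in the cells went in both directions. Of the 9 tested, 3 were higher and 2 lower (edgeR, adjusted p-value under 0.05), in a comparison that called 37.8% of all 11826 tested genes higher and 38.3% lower. Of all genes called, 4467 of 8995 were higher, against 3314 of 9190 when libraries were scaled by total counts and 2534 of 8685 with limma on log2(TPM + 1). CPM here are shares of the total counts, whereas the fitted changes are scaled by TMM factors, which were 1.06 to 1.07 for the DMSO and 0.934 to 0.941 for the YJ1206 libraries, so a fitted change lies above the ratio of the mean CPM. Their median log2 fold change was 0.017, against -0.017 for all genes tested. Tnni2 fell from 22.9 ± 1.64 CPM to 4.55 ± 0.388 CPM (mean ± SD over 3 libraries), which is -2.15 with a standard error of 0.11 on the log2 scale (edgeR, adjusted p = 7.88e-16). Eno3 fell from 153 ± 3.84 to 88.2 ± 1.57 CPM, which is -0.61 with a standard error of 0.038 on the log2 scale (edgeR, adjusted p = 4.45e-14). Xirp1 rose from 1.52 ± 0.0411 to 6.99 ± 0.352 CPM, which is 2.38 with a standard error of 0.19 on the log2 scale (edgeR, adjusted p = 7.49e-12). Actn3 rose from 1.09 ± 0.105 to 2.34 ± 0.465 CPM, which is 1.28 with a standard error of 0.29 on the log2 scale (edgeR, adjusted p = 0.000284). In each of these 4 genes the libraries of the groups did not overlap. Acta1, described after its values were seen because it is under 1 CPM, went from 2, 3 and 4 counts to 23, 19 and 23 counts with YJ1206, which is 3.34 with a standard error of 0.46 on the log2 scale (edgeR, adjusted p = 2.74e-07).

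The other 4 did not pass the test. Mylpf was at 1.94 ± 0.443 CPM with DMSO and 1.73 ± 0.403 CPM with YJ1206, and its fitted change was 0.017 on the log2 scale (adjusted p = 0.961, edgeR). Tpm2 was at 3.79 ± 0.376 and 3.25 ± 0.388 CPM, with a fitted change of -0.034 (edgeR, adjusted p = 0.880). Pygm was at 3.30 ± 0.354 and 3.66 ± 0.590 CPM, with a fitted change of 0.33 (edgeR, adjusted p = 0.132). Actn2, also under 1 CPM and described after its values were seen, went from 12, 13 and 19 counts to 5, 10 and 2 counts, with a fitted change of -0.81 (edgeR, adjusted p = 0.138). The groups overlapped for each of these 4. The labels number the DMSO and the YJ1206 cell libraries in separate runs, and a difference between these runs and the treatment cannot be told apart. The median of all genes was -0.20 when libraries were scaled by total counts and -0.24 on the log2(TPM + 1) scale, and the 5 changes called kept their direction and call in both.

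**Figure D5:**
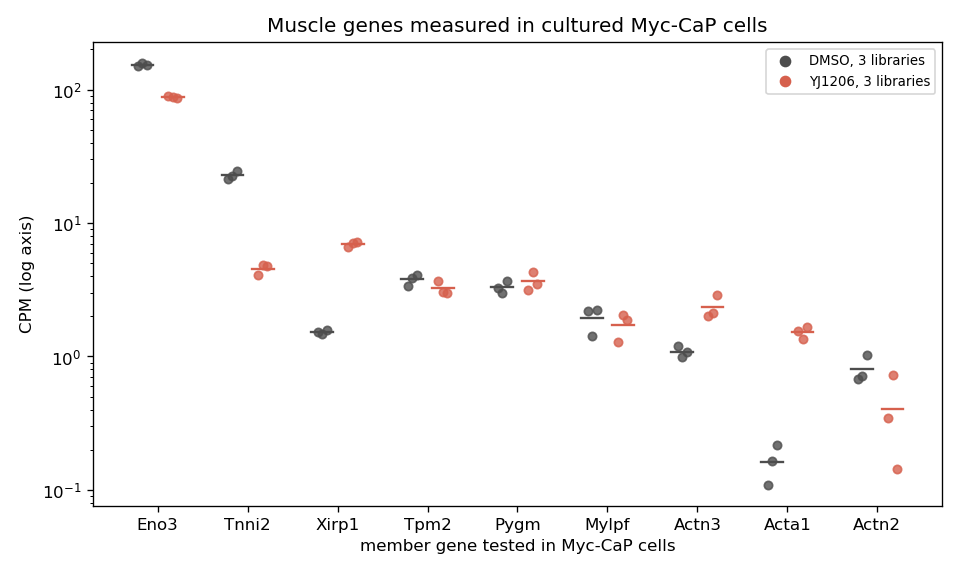
CPM (log axis) of the 9 genes that could be tested in cultured Myc-CaP cells, with each of the 3 libraries per treatment as a point and their mean as a line. Eno3 and Tnni2 are lower and Xirp1, Actn3 and Acta1 higher in every YJ1206 library than in every DMSO library, and the points of the other 4 overlap.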

How the data were processed

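The authors deposited, for cells and tumors separately, a table of estimated counts per gene and a table of TPM values, and their processing notes name kallisto and GRCm38 (mm10) without a version. The estimated counts are not scaled between libraries, and the TPM values were scaled by the authors to a sum of 1000000 per library. Neither strand setting nor transcript annotation is given in the sources used here. The tests had been planned for whole counts, so the estimated counts were rounded. The 6 libraries of each table were tested in R 4.3.3 by the quasi-likelihood method of edgeR 4.0.16, after filterByExpr and TMM scaling, with Benjamini-Hochberg adjustment over all genes tested and a threshold of 0.05. CPM printed in the text are counts over the total counts of the library, without TMM scaling. limma 3.58.1 and DESeq2 1.42.0 gave alternatives, and the edgeR fit was tested on simulated data. It recovered 94.3% of the changed genes in the tumor setting and 100% in the cell setting. Of its calls there, 11.7% and 7.55% were false, both above the threshold. Groups came from the sample labels, which place the tumor treatment under a tag for batch, and the authors state independent biological replicates. No pair of libraries in a group was alike within sampling noise (chi-square per gene 1.89 to 49.4).

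The 43 genes and the gene lists were chosen with earlier results of these data known. Per-library values are given for the 4 genes of each role with the highest mean TPM and for genes whose vehicle order departed, cell tests for genes with at least 1 CPM, and likeness for the 10 nearest genes, of which 1 is not reported here. Of the listed genes outside the 43, the 2 most abundant of each list are named, and others, and the cell tests of Acta1 and Actn2, were chosen after their values were seen.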

Additional observations from a re-analysis of the deposited data

How the results depend on the processing

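Within tumors, the number of the 43 genes called (27 of 33 tested) became 12 with limma on log2(TPM + 1), 16 on log2(TPM + 0.1) and 0 in edgeR with libraries 1 and 2 of each group alone, where 21 had an unadjusted p-value under 0.05. It was 38 with no filter on low counts, where all 43 were tested, and 30 in DESeq2. Of all 15558 genes tested, 2394 were lower on log2(TPM + 1), 2406 on log2(TPM + 0.1) and 2459 in DESeq2. With no filter, 2340 of 22012 were lower. The number of all genes called (4176) became 1 with libraries 1 and 2 alone, against 3068 at an unadjusted p-value under 0.05. With each library left out, it ranged from 1877 (without YJ1206 library 3) to 5724 (without vehicle library 2), and was also low when vehicle library 3 (1938) or YJ1206 library 2 (2739) was the one removed, and the number of the 43 genes from 5 (without YJ1206 library 3) to 40 (without vehicle library 2), with 33 or 43 tested. The median log2 fold change of those tested (-3.19 over 33 genes) became -4.23 over 43 genes with no filter, -1.95 on log2(TPM + 1) and -2.48 to -4.73 with each library left out, again over 33 or 43 genes. As a share of TPM in place of counts, the 43 genes took 0.193% and 0.135% in vehicle libraries 1 and 3 and 0.0311%, 0.0389% and 0.0366% in the YJ1206 libraries, with 0.0492% in vehicle library 2. DESeq2 size factors, total counts and scaling without muscle genes left 27 called. With a replicate block, 18 of the 43 genes and 3477 of all genes were called. Deviations of same-numbered libraries did not correlate (-0.0145 to 0.0014 in tumors and -0.0292 to 0.0109 in cells). Those of differently numbered libraries ran from -0.0193 to 0.0209 in tumors and from -0.0289 to 0.0419 in cells. Whether same-numbered samples were handled together cannot be told from these values.

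In cells, 5 to 6 of the tested genes were called under each alternative, and Mylpf and Tpm2, which did not pass the test, changed sign. Mylpf was -0.17 with total counts, -0.35 on log2(TPM + 1), -0.39 on log2(TPM + 0.1) and -0.16 to 0.21 with each library left out, and Tpm2 was -0.13 to 0.019 with each left out. The cause of these shifts was not tested. Tpm2 passed the test on both log2(TPM) scales (limma adjusted p = 0.0206 and 0.0211), and Actn2 without YJ1206 library 2 (edgeR adjusted p = 0.0344). The replicate block left 5 called. Counts at or under 3 limit the ratios of Myh4, Myh7, Pvalb, Pgam2, Ckmt2, Myot, Myoz1, Smpx and Tnnt1.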

Other observations

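Genes of embryonic and newborn muscle did not follow the 43 genes among the vehicle libraries. Myh3, the embryonic myosin heavy chain, which lies beside the fast chains at chr11:67078300-67102291, had 112, 139 and 80 counts in vehicle libraries 1, 2 and 3 and 7, 7 and 1 with YJ1206 (log2 fold change -4.33, edgeR adjusted p = 0.00101). Tnnt2, the troponin T of embryonic and heart muscle, was at 17.7, 20.5 and 18.1 TPM with vehicle and at 5.25, 5.62 and 4.42 TPM with YJ1206 (log2 fold change -1.71, edgeR adjusted p = 0.00180). Both were lower in 3 of 3 YJ1206 libraries, and neither was called with libraries 1 and 2 alone (adjusted p = 0.119 and 0.134). In that list, 5 of the 8 genes tested were lower with YJ1206, beside 14.9% of all tested genes, and 2 of the 9 measured had the vehicle order 1, 3, 2, which 42 of the 43 genes and 30.8% of all tested genes had. Myh3 and Tnnt2 were singled out after their values were seen. Myh3 and Actc1, another gene of that list, passed the filter on low counts through the vehicle libraries alone, so nothing is read from their calls. In cultured cells, Tnnt2 was higher with YJ1206 (log2 fold change 2.44, edgeR adjusted p = 2.95e-06). Its level there was low. The 12 heart genes, Tnnt2 included, together summed to 0.422 to 1.76 TPM with DMSO and 2.88 to 5.93 TPM with YJ1206. A difference of the YJ1206 effect on Tnnt2 between cells and tumors was not tested.

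Lists not named so far had these summed TPM over the vehicle and then the YJ1206 libraries. Smooth muscle genes, without Des, which is one of the 43, ran from 148 to 161 and from 140.0 to 205. White adipocyte genes ran from 195 to 234 and from 210.5 to 270.4, of which Acsl1 made up most, at 160 to 214 and 186 to 233. Of the 10 white adipocyte genes, 7 had the vehicle order 1, 3, 2, beside 30.8% of all tested genes. Among them, Cfd had 60, 0 and 38 counts with vehicle and 1, 2 and 0 with YJ1206. Retn, which did not have that order, had 36, 50 and 26 counts, then 32, 30 and 39. Brown adipocyte genes ran from 5.60 to 23.4 and from 6.50 to 10.7, where Cox8b, also listed as a muscle gene, took 16.0 TPM in vehicle library 1. Heart genes ran from 24.0 to 26.1 and from 7.55 to 9.48, most of it Tnnt2, and genes of the nerve-muscle junction from 26.7 to 31.2 and from 25.8 to 30.1. Keratinocyte genes ran from 566 to 786 and from 352 to 546, of which Krt15 made up most while Krt1 and Krt5 had at most 1 count in each library. Schwann cell genes ran from 44.9 to 60.5 and from 45.8 to 49.3, and erythroid genes from 4563 to 5825 and from 1403 to 3657. Genes of the Myc-CaP epithelium ran from 528 to 682 and from 828 to 948, lowest in vehicle library 1, where the 43 muscle genes were highest.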
